A study of Mus musculus with 6 samples.

Results

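Pyruvate carboxylase (Pcx) and 6 other genes of mitochondrial pyruvate use and oxaloacetate supply, namely Pdha1, Pdhb, Dlat, Pcca, Pccb and Pck1, were described in the pancreas of mice with and without Cftr. All probe sets that the platform annotation assigns to these genes alone were taken, together with the array's 4 quality-control probe sets for Pcx. This gave 12 probe sets of 6 genes, out of 8252 named genes on the array; Pcca matched no probe set of that annotation and was not analysed here. The genes were chosen by their measured differences between CFTR-/- and CFTR+/+ arrays, with those values known. The differences between these groups are therefore given for the members as a description, with no test. Each of 6 one-colour Affymetrix arrays held pancreatic total RNA of a single male mouse. The 3 control mice were CFTR+/+ and aged 57, 56 and 57 days, and the 3 CF mice were CFTR-/- and aged 57, 56 and 58 days. All 6 mice were gastrin+/-, had a background of 95% black6 and 5% 129Sv, and received Peptamen, a peptide-based liquid diet, from the age of 10 days. Cftr encodes the epithelial anion channel that is defective in cystic fibrosis (CF). The pancreas of control replicate 1 alone is labelled as entire.

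Pyruvate reaches the mitochondrial matrix as the end product of glycolysis and is used there in 2 main ways. Pyruvate carboxylase, a biotin enzyme, adds a carboxyl group and makes oxaloacetate, which refills the citric acid cycle and feeds gluconeogenesis and citrate export. The pyruvate dehydrogenase complex instead oxidises pyruvate to acetyl-CoA. Pcx is known for high activity in liver, adipose tissue and the beta cells of pancreatic islets. Pck1 turns oxaloacetate into phosphoenolpyruvate in the cytosol, for gluconeogenesis in liver and kidney and for glycerol supply in fat cells. Propionyl-CoA carboxylase, made of the Pcca and Pccb chains, is a further biotin enzyme and feeds carbon of some amino acids and odd-chain fatty acids towards succinyl-CoA.

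RefSeq promoter windows in GRCm38.p6, each running from 250 bases before to 50 bases after a transcript start, are shown for Pcx, whose probe sets lay mostly higher in CF, and for Pck1, the member with the widest range between mice. RefSeq held 2 windows for Pcx, 83847 bases apart on the plus strand of chromosome 19, at chr19:4510222-4510521 and chr19:4594069-4594368. Which start the measured Pcx RNA came from cannot be read from these arrays. Capitals mark CCAAT, searched on both strands.
Pcx upstream start: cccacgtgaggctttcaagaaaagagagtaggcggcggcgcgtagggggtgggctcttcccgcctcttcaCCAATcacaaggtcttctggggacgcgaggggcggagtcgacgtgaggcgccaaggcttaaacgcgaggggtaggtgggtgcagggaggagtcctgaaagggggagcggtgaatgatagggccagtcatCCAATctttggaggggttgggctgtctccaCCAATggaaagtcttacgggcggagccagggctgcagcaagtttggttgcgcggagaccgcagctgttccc
Pcx downstream start: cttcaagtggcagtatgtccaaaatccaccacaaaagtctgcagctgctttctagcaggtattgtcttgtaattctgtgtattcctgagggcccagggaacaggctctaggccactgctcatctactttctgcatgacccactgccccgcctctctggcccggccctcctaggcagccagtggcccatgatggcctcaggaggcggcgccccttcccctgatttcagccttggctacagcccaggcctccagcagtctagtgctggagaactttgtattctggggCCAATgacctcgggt

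The upstream Pcx window held CCAAT at 3 places, 180, 51 and 21 bases before the start. The downstream window held it at 1 place, 35 bases after its start. CCAAT or its complement was present in 37.4% of 32817 promoter windows of the same length. The upstream window was also richer in CG dinucleotides, with 20 against 5 in the downstream one and a median of 7 over all windows. The Pck1 window lies at chr2:173152823-173153122 on the plus strand. Its capitals mark TTACGTCA, the form of the cAMP response element known from the Pck1 promoter.
Pck1 start: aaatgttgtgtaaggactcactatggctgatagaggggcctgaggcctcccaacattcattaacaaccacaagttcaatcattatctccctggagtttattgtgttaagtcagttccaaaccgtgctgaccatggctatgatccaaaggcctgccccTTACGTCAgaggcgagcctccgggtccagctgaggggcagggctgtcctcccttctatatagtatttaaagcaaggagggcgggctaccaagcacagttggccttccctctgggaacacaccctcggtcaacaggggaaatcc

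This match began 93 bases before the Pck1 start. TTACGTCA or its complement was found in 0.497% of the 32817 windows, and in 0 of the 2 Pcx windows. A match describes the letters only.

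The 4 quality-control probe sets of Pcx were all higher in CF on average, and 3 of them did not overlap between the groups. Of the 35 quality-control probe sets bright enough to test, 4 (11.4%) were entirely higher in CF. That share is mostly made of these same 3 Pcx probe sets. The names of the 4 Pcx probe sets place them at the 3' end, at the 5' end and at 2 middle parts, MA and MB, of the transcript. In this bulk tissue, a higher level per cell cannot be told apart from more cells that express the gene. The 3' probe set had intensities of 741 in control replicate 1, 268 in control replicate 2 and 685 in control replicate 3, and of 1095, 1180 and 983 in the CF mice in the same order. Every CF mouse lay above every control mouse, and control replicate 2 stood far below the other controls. The means were 565 ± 258 in controls and 1086 ± 98.6 in CF (SD, n = 3 per group), a log2 difference of 1.07 ± 0.48 (SE) or 2.11-fold. Without control replicate 2 the log2 difference was 0.60.

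The MB probe set, in the middle of the transcript, had the widest separation. Controls read 119, 115 and 97, and CF mice 448, 809 and 257. All 3 controls were dim and close together, under the brightness limit of 140.2 that was used to select probe sets for testing, whereas the CF mice spread over a wide range. The means were 110 ± 11.8 and 505 ± 281, a log2 difference of 2.04 ± 0.49 or 4.12-fold. Since MB passed that limit through its CF values alone, its large difference was bound up with its selection. Leaving out single arrays gave log2 differences of 1.62 to 2.45.

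The 5' probe set differed less. Controls read 539, 607 and 507, and CF mice 842, 633 and 651. The groups did not overlap, but the lowest CF value and the highest control value lay close to each other. The log2 difference was 0.36 ± 0.15 (551 ± 51 against 709 ± 116). The MA probe set read 138, 241 and 137 in controls and 183, 631 and 187 in CF, and its groups overlapped because of control replicate 2. Its log2 difference of 0.75 ± 0.65 was 0.16 without CF replicate 2, the mouse that was highest on MA, MB and the 3' probe set alike.

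**Figure D1:**
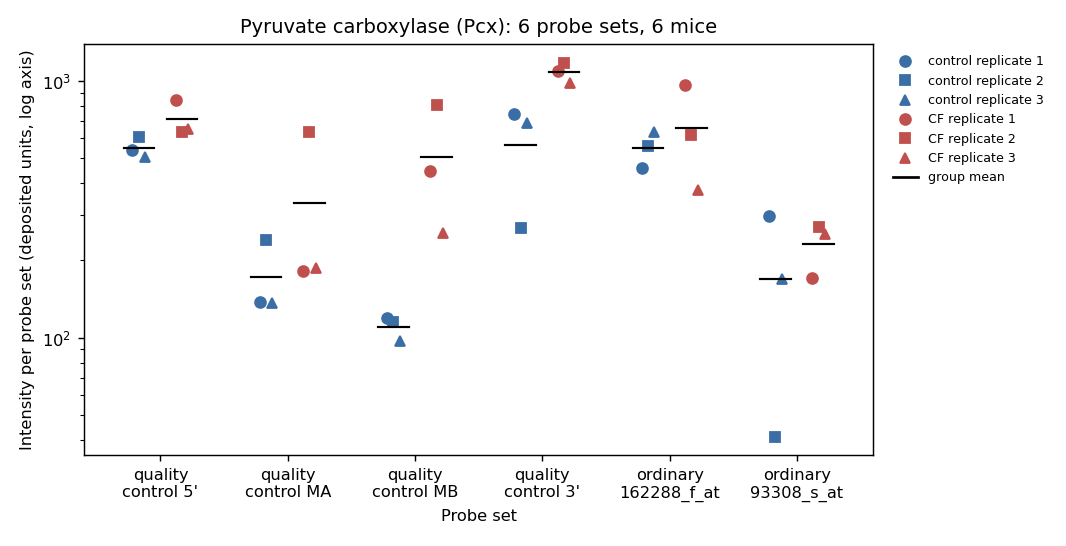
Intensity of the 6 Pcx probe sets on a log axis, with 1 point per mouse, symbols by replicate, blue for control and red for CF, and black bars for group means. The CF points lie above all control points for the 5', MB and 3' quality-control probe sets and are mixed with them for MA and for both ordinary probe sets.

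Among the array's 66 quality-control probe sets, which serve for checks and stayed outside the comparison of all genes, 35 were bright enough for testing. In 4 of these 35 the CF values all exceeded the control values, and 3 of the 4 were those of Pcx. The remaining one was named for murine FAS, with a log2 difference of 0.88. Over all 66, 5 were higher without overlap and 0 were lower; the fifth, a dimmer probe set of the bacterial BioB control, differed by 0.94. Since the genes were chosen with these values known, nothing is read from the count.

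The 2 ordinary Pcx probe sets had overlapping groups. Probe set 162288_f_at, whose suffix marks probes shared by a sequence family, read 457, 558 and 633 in controls and 969, 618 and 375 in CF. The CF mice were both the highest and the lowest of the 6, and the log2 difference of 0.16 ± 0.42 changed sign to -0.18 without CF replicate 1. Probe set 93308_s_at, whose suffix marks probes common to several transcripts, read 299, 41.2 and 169 in controls and 171, 271 and 254 in CF. Control replicate 2 was again lowest, here below the floor of 47.6 to which small values were raised. The log2 difference was 0.77 ± 0.81, and 0.02 without that mouse.

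The 6 Pcx probe sets therefore did not follow a single pattern over the mice. Likeness was measured as the root mean square difference of log2 values after centring each probe set on its own mean over the 6 arrays. Between pairs of Pcx probe sets it ran from 0.36 for 162288_f_at and the 5' probe set to 1.15 on the log2 scale. The 3' probe set was nearest to 93308_s_at, at 0.44, and 162288_f_at was nearer to a Dlat probe set (0.21) than to any other Pcx probe set. How far each probe set reads other transcripts was not measured. The ratio of the 3' to the 5' Pcx signal was 1.38, 0.44 and 1.35 in controls and 1.30, 1.86 and 1.51 in CF. The low ratio belonged to control replicate 2. The same mouse had the highest 3' to 5' ratio for Gapdh, at 1.45 against 0.72 to 0.87 in the other 5, while its Actb ratio of 2.16 was close to the 2.14 of CF replicate 2. The part of RNA quality in the Pcx values was not tested.

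Arrays with the same title suffix deviated from their group means together, and the difference within such pairs is therefore also given. On all 4 quality-control probe sets of Pcx the CF mouse was above the control mouse in 3 of 3 pairs. At the 3', 5' and MB probe sets this followed from the lack of overlap between groups, whichever mice were paired. Nothing is read from this count, because the genes were chosen with these values known. The log2 differences within pairs were 0.56, 2.14 and 0.52 at the 3' probe set and 1.91, 2.82 and 1.40 at MB. At the 5' probe set they were 0.64, 0.06 and 0.36. On the ordinary probe sets, pairs pointed both ways, with 1.09, 0.15 and -0.76 for 162288_f_at and -0.80, 2.51 and 0.59 for 93308_s_at.

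**Figure D2:**
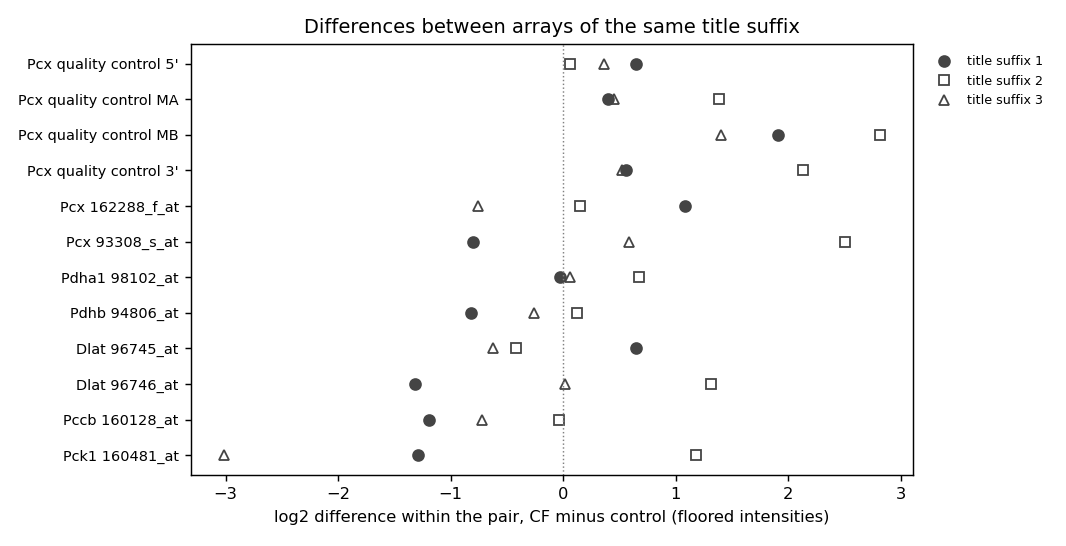
Log2 difference, CF minus control, within each of the 3 pairs of arrays with the same title suffix, for all 12 probe sets, on floored intensities. All 3 symbols lie right of the dotted zero line for the 4 quality-control probe sets of Pcx and left of it for Pccb, and on both sides for every other probe set.

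Levels of cell type markers were compared beside those of Pcx. Islet markers, of which 17 of 20 were on the array, summed to 20649, 80091 and 55026 in controls and to 23685, 37446 and 60815 in CF, so the groups overlapped. Control replicate 2 had the highest islet sum, led by the insulin gene Ins2, and the lowest Pcx signal on the 3' probe set. The only islet marker under the floor on every array was the transcription factor gene Isl1. Duct markers were higher in CF in 7 of 8 tested genes, 4 of them without overlap (7.37% of all tested probe sets were entirely higher), with a lowest adjusted p of 0.11 in limma. The 4 were Krt18, Elf3, Epcam and Cldn4. Krt19 read 396, 237 and 478 in controls and 312, 323 and 485 in CF, with overlap. The duct markers summed to 16018, 14711 and 19919 in controls and 20648, 18641 and 22763 in CF, so these sums overlapped too. The part of islet, duct or fat cells in the Pcx values was not tested.

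Of the pyruvate dehydrogenase complex, neither the first nor the second enzyme showed groups apart. Pdha1, the alpha chain of the first enzyme, read 3336, 2218 and 3726 in controls and 3275, 3532 and 3883 in CF. Values overlapped, and only control replicate 2 was clearly low. The log2 difference was 0.23 ± 0.24, and 0.01 without that mouse. Pdhb, the beta chain of the same enzyme, read 1119, 695 and 1110 in controls and 635, 755 and 927 in CF. Here the same control was low, while all CF values were below the other 2 controls, for a log2 difference of -0.32 ± 0.28.

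Dlat, the acetyltransferase core of the complex, had 2 probe sets that did not move alike. The brighter read 516, 660 and 568 in controls and 808, 495 and 368 in CF, with the controls inside the CF range (log2 difference -0.13 ± 0.35). The dimmer read 168, 135 and 269 against 67.3, 336 and 273, again with the controls inside the CF range (0.01 ± 0.79). CF replicate 1 was the highest mouse on the first probe set and the lowest on the second.

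Pccb, which encodes the beta chain of propionyl-CoA carboxylase, was lower on average in CF. It read 1287, 792 and 1335 in controls and 564, 771 and 810 in CF. The groups overlapped only through control replicate 2, which lay between CF replicates 2 and 3. Means were 1138 ± 301 and 715 ± 132, a log2 difference of -0.65 ± 0.29, and -0.89 without that control. Within pairs the log2 differences were -1.19, -0.04 and -0.72, the middle one very small. Since Pccb was chosen with these values known, nothing is read from their sign. Pccb and Pdhb were the 2 most alike of the 12 probe sets, at 0.18 on the root mean square log2 scale, with control replicate 2 low and CF replicate 1 lowest in both.

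**Figure D3:**
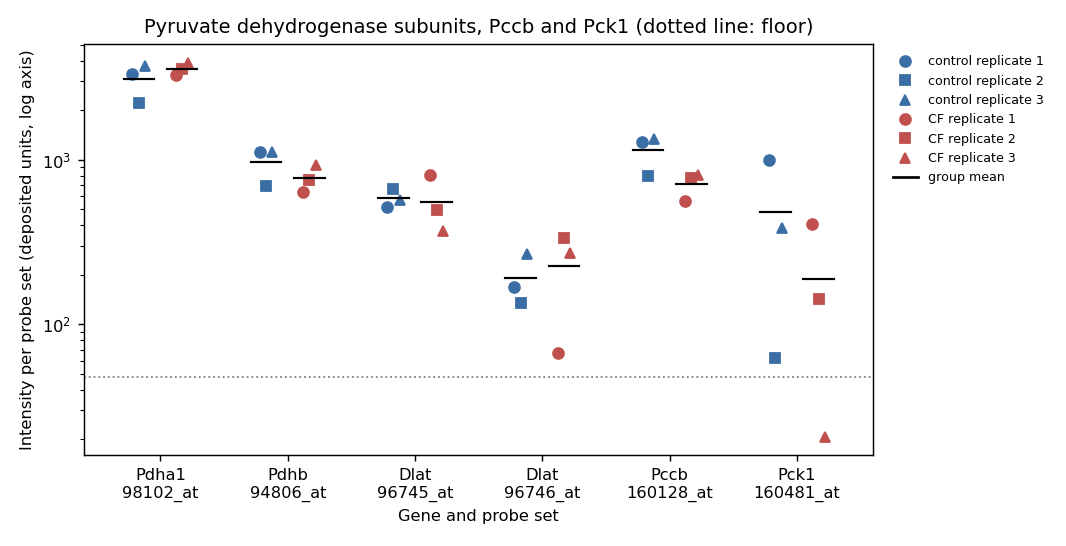
Intensity of the 6 probe sets of Pdha1, Pdhb, Dlat, Pccb and Pck1 on a log axis, with 1 point per mouse and black bars for group means; the dotted line is the floor of 47.6. Groups overlap in each probe set, and Pck1 spreads furthest, from 20.8 to 992.

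Pck1, the cytosolic phosphoenolpyruvate carboxykinase, varied more between mice than any other of the 12 probe sets. It read 992, 62.5 and 384 in controls and 405, 142 and 20.8 in CF, a 47.7-fold range. Both groups held bright and dim mice, and the lowest value was under the floor. The log2 difference was -1.04 ± 1.47 on floored values and -1.44 on unfloored ones, so its error exceeded its size. Leaving out control replicate 1 gave -0.15, leaving out control replicate 2 gave -2.14, and leaving out CF replicate 3 gave -0.26. Within pairs the differences were -1.29, 1.18 and -3.01.

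The summed level of adipocyte markers was high in the mice with high Pck1, though not every marker followed it. Of 20 such genes, 16 were on the array and 11 were bright enough to test, and their summed intensity was 55494, 9031 and 24761 in controls and 15888, 8125 and 8015 in CF. The 3 mice with the highest sums, control replicates 1 and 3 and CF replicate 1, were also the 3 with the highest Pck1. Adipoq, the fat cell hormone adiponectin, read 5591, 187 and 1899 in controls and 721, 54.2 and 58.2 in CF. Of the 16 markers, 0 were under the floor on every array, although Cidec, a lipid droplet protein, was under it in all 3 CF mice. Scd1, a fatty acid desaturase that other tissues also express, was the brightest of them in the 3 mice with high sums, and Lep, for leptin, in the other 3. Lep, Agt and Cidea were highest in control replicate 2, where Pck1 was low, and Cidec and Retn were low in CF replicate 1, where Pck1 was 405. Of the 11 tested markers, 10 were lower in CF on average. The part of fat tissue in the Pck1 values was not tested.

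Markers of kidney and liver, where Pck1 is also abundant, were read too; sums of different lists cannot be set against each other, since probe sets differ in brightness. Among 8 kidney tubule markers, 2 were bright enough to test, and their list summed to 533 to 874 over all 6 arrays. Of 14 liver markers, 12 were on the array and 6 were bright enough. The liver sum was 8193, 3853 and 4189 in controls and 4724, 3198 and 2562 in CF. Its 3 highest mice were those of Pck1, in the same order, and CF replicate 3 was lowest in both. Its brightest member on average was Hp, for haptoglobin, which fat also makes. Cyp2e1, the next brightest, read 1990, 775 and 874 in controls and 1363, 580 and 488 in CF. Its 3 highest mice were also those of Pck1, in the same order. Albumin, Alb, read 338 to 650 and was highest in control replicate 2. Fgb, a fibrinogen chain, was under the floor on every array. The part of liver tissue was not tested. The labelled tissue itself was plain in every mouse, with all 11 acinar markers on the array bright and summing to 746971 or more.

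**Figure D4:**
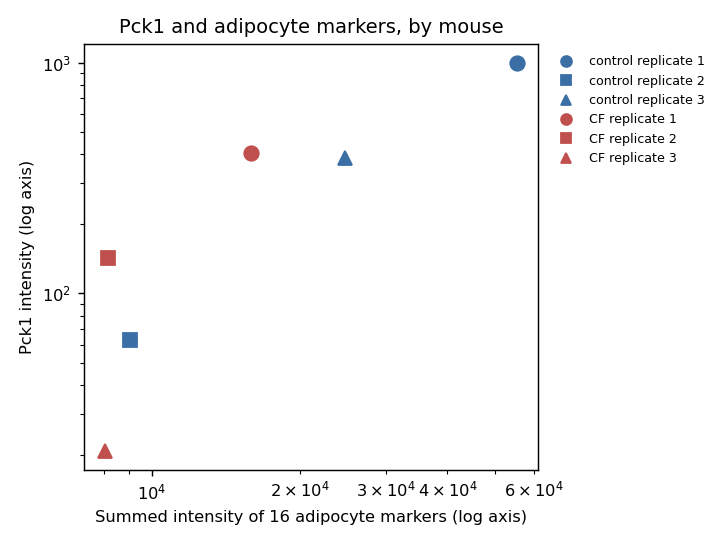
Pck1 intensity against the summed intensity of 16 adipocyte markers, 1 point per mouse, both axes logarithmic. Control replicates 1 and 3 and CF replicate 1 are highest on both axes, and the other 3 mice have sums of 8015 to 9031 with Pck1 between 20.8 and 142.

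The named genes nearest to Pck1 over the 6 arrays were Crip1, a LIM domain protein, at a root mean square difference of 0.38, Cxcl13, the chemokine that attracts B cells, at 0.39, and Ighg3, an immunoglobulin heavy chain, at 0.47. H2-Eb1, a class II histocompatibility chain, and Scd1 followed at 0.58 and 0.59. Ighg3 had 7 probe sets and Scd1 had 3, and only the distance of the nearest of each is given. Cxcl13 read 653, 31.8 and 366 in controls and 327, 63.3 and 18.1 in CF, with the same high and low mice as Pck1. For scale, the Pck1 values themselves lay 1.56 from their own mean.

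The genes nearest to the 3' Pcx probe set were Pam16, a subunit of the motor that pulls proteins into mitochondria, at 0.07, Lysmd2, a LysM domain gene, at 0.09, and Arl2, a small GTPase, at 0.15. Slc22a17, a membrane protein that binds lipocalin, and Eif3e, a translation initiation subunit, lay at 0.15 and 0.16. Eif3e had 2 probe sets, and only the distance of the nearer is given. Pam16 read 433, 172 and 430 in controls and 608, 697 and 583 in CF. Like the 3' Pcx probe set, it was lowest in control replicate 2 and higher in every CF mouse than in any control. These genes were picked for their likeness among 7739 probe sets, so their group difference adds nothing to that of Pcx.

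Over all genes, limma called 5 of 7739 probe sets at an adjusted p under 0.05 (0.0646%). With the title suffix as a replicate block it called 10. Of the 8 ordinary probe sets of the members, 4 were higher and 4 lower on average. In 0 of them did the groups separate, against 7.37% of all tested probe sets with CF entirely higher and 5.62% with CF entirely lower. The median log2 difference over all tested probe sets was 0.00.

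The genes around the members were followed in 10 lists of 135 genes, of which 73 could be tested. Of these 73, 0 passed the limma threshold in either direction (lowest adjusted p = 0.31), and 3 were higher and 4 lower at an unadjusted p under 0.05, beside 571 of 7739 probe sets (7.38%) overall. Groups separated in 4 genes with CF higher and in 4 with CF lower, 8 of 73. Over all tested probe sets, 7.37% were entirely higher in CF and 5.62% entirely lower, so the count of 8 does not stand out. The lists were chosen with earlier results of these data known, so their counts and p-values are not independent of them. The median log2 difference over the 73 genes was -0.08.

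In the list of pyruvate entry and fates, which also holds enzymes that make pyruvate, 4 genes were tested. Ldha, the lactate dehydrogenase chain that turns pyruvate into lactate, had the smallest p of all 73. It read 2419, 1669 and 2824 in controls and 4269, 3497 and 4265 in CF, with every CF mouse above every control (log2 difference 0.83 ± 0.21, adjusted p = 0.31). The other 3 were lower on average. Pklr and Pkm, pyruvate kinases that make pyruvate, differed by -1.07 ± 0.44 (adjusted p = 0.66) and -0.47 ± 0.23, and Ldhb by -0.88 ± 0.72.

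Among 6 partners and regulators of pyruvate dehydrogenase, the median log2 difference was 0.19. Pdk4, the kinase that switches the complex off in fasting, read 1299, 1722 and 1058 in controls and 5384, 4239 and 983 in CF. CF replicates 1 and 2 were far above all controls and CF replicate 3 was below them (1.08 ± 0.56, adjusted p = 0.72; 1.84 without CF replicate 3). Pdk1, a further such kinase, differed by 0.33 ± 0.23, Lias, which makes the lipoyl group of Dlat, by 0.31 ± 0.25, and Nfu1, an iron-sulfur carrier needed for that step, by -0.21 ± 0.52. In the related keto acid dehydrogenases the median of 6 genes was -0.08. Ogdh, of the citric acid cycle enzyme, was at -0.40 ± 0.21 and Bckdk, the kinase of the branched-chain complex, at -0.22 ± 0.18, while Bckdha and Bckdhb, chains of the first enzyme of that complex, were at 0.17 ± 0.18 and -0.15 ± 0.24.

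The other biotin enzymes and the genes of biotin handling gave 3 tested genes, all lower on average and all overlapping. They were Mccc1, a chain of methylcrotonyl-CoA carboxylase (-0.48 ± 0.35), Btd, the biotinidase that frees biotin for reuse (-0.21 ± 0.47), and Slc5a6, the vitamin carrier that takes up biotin (-0.22 ± 0.59). Their median of -0.22 was 0.07 without CF replicate 3. On the routes to and from propionyl-CoA, around Pccb, the median of 5 genes was 0.05, with the mutase Mmut at 0.22 ± 0.21, the epimerase Mcee at -0.23 ± 0.24, the mitochondrial acyl-CoA synthetase Acss1 at 0.19 ± 0.21 and Hibch, of valine breakdown, at -0.07 ± 0.30.

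Of 15 citric acid cycle genes, 6 were higher and 9 lower, with a median of -0.05. Idh3a, a catalytic chain of the NAD-dependent isocitrate dehydrogenase, read 742, 1122 and 462 in controls and 408, 243 and 430 in CF, a narrow separation (-1.06 ± 0.37, adjusted p = 0.55). The succinate dehydrogenase chains Sdhb and Sdhc were at 0.25 ± 0.17 and -0.26 ± 0.19. Among 9 genes that shuttle oxaloacetate and citrate, Idh1, the cytosolic NADP-dependent isocitrate dehydrogenase, read 561, 639 and 487 in controls and 749, 1026 and 1109 in CF, without overlap (0.76 ± 0.23, adjusted p = 0.44). Glud1, glutamate dehydrogenase, the citrate carrier Slc25a1 and the malate dehydrogenase Mdh1 were at 0.20 ± 0.17, -0.23 ± 0.20 and -0.15 ± 0.19.

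The 6 gluconeogenic genes had a median of -0.19. Fbp2, the fructose bisphosphatase of muscle, read 183, 182 and 405 in controls and 54.8, 80.7 and 73.1 in CF, without overlap (-1.80 ± 0.51, adjusted p = 0.43). It was bright enough to test through its control values alone, so its separation was bound up with its selection, and with the floor at the 40th percentile the difference was -0.76. Skeletal muscle markers, of which 6 of 9 were bright enough to test, summed to 2744, 4804 and 3401 in controls and 3276, 4381 and 2222 in CF. The part of muscle in the Fbp2 values was not tested. Pck2, the mitochondrial relative of Pck1, read 1647, 2550 and 2191 in controls and 1844, 1707 and 2155 in CF (-0.15 ± 0.20, adjusted p = 0.92). It did not follow the wide swings of Pck1. G6pc3, a glucose phosphatase, and Aqp7, a glycerol channel of fat, were at -0.24 ± 0.18 and 0.70 ± 0.63.

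In glycolysis, 3 genes were higher and 7 lower, with a median of -0.14. Aldoa, the aldolase of muscle and many other tissues, read 2931, 3028 and 2893 in controls and 2223, 2187 and 2646 in CF, a small but separate difference (-0.33 ± 0.15, adjusted p = 0.67). The phosphofructokinase gene Pfkm read 497, 353 and 305 against 330, 89.3 and 227, with overlap. The glucose carrier gene Slc2a3 was at -1.13 ± 0.60, and at -0.38 with the floor at the 40th percentile. The enolase gene Eno3 was at -0.55 ± 0.44, and at -0.02 without CF replicate 1. Among 11 tested genes listed as regulators of Pcx or Pck1, the median was -0.09. Cebpd read 786, 336 and 679 in controls and 1333, 1064 and 804 in CF, without overlap (0.89 ± 0.34, adjusted p = 0.63), and its relative Cebpb was at 0.81 ± 0.44 with overlap. Usf2 read 2437, 1737 and 1595 in controls and 922, 1448 and 1439 in CF (-0.60 ± 0.24, adjusted p = 0.66), and Esrra, the oestrogen-related receptor that acts with mitochondrial genes, was at 0.30 ± 0.17.

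**Figure D5:**
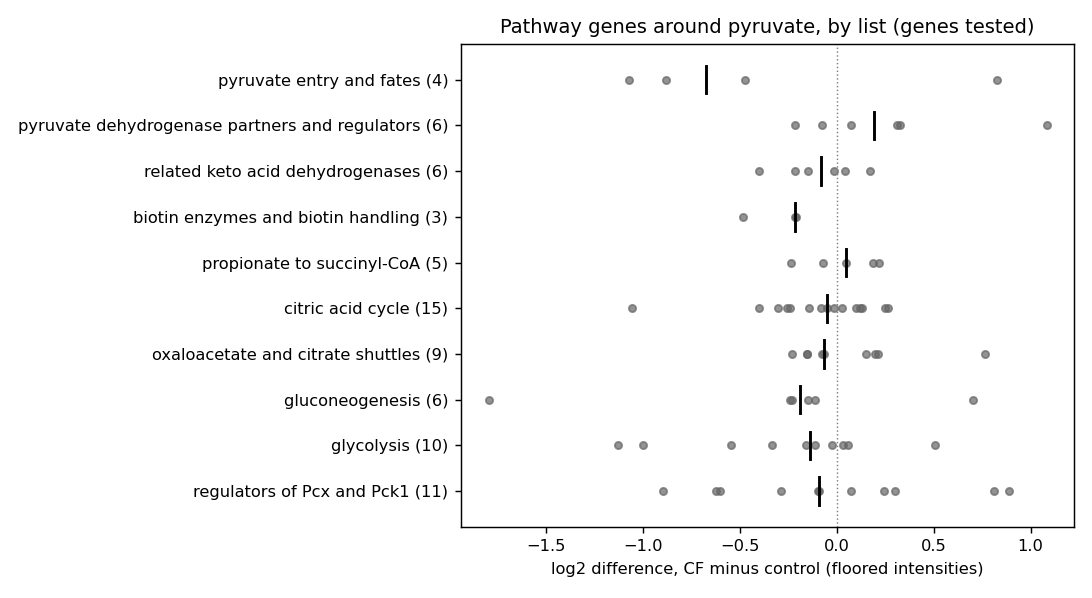
Log2 difference, CF minus control, of each tested gene of the 10 pathway lists (grey points, 1 probe set per gene) with the list median (black bar) and the number of genes tested in brackets. Medians run from -0.68 for pyruvate entry and fates to 0.19 for partners of pyruvate dehydrogenase, and 0 genes passed the threshold.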

How the data were processed

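Total RNA from 6 pancreases, prepared by the TRIzol method per the labels, went onto 1 array each. The authors deposited linear intensities, 1 per probe set (12488) and array. The software is not named in the labels. Means after trimming 2% at each end were 500.27 to 500.3, so the deposited scaling was kept. No column went unused. Members and lists were chosen with earlier results of these data known.

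Values under the pooled 20th percentile (47.6) were raised to it and log2 was taken. Apart from the 66 quality-control probe sets, a probe set was tested if at least 3 of 6 arrays exceeded the pooled 40th percentile (140.2). That left 7739. Groups, from the genotype in the descriptions, were compared by lmFit and eBayes of limma 3.58.1 under R 4.3.3, using an intensity trend and Benjamini-Hochberg adjustment over all tested probe sets, at a threshold of 0.05. The fit was tested on simulated data. Member SEs are from group SDs; pathway SEs are from limma. Symbols came from the platform annotation (10855 probe sets with 1 symbol, 396 with several, 1237 with none), updated by gene identifier to RefSeq names. Each listed gene was read from its probe set of highest mean, and up to 4 genes of smallest p per list were named. Of the named ones, Pkm, Glud1, Slc25a1 and Aldoa had 2 tested probe sets each, and the dimmer is not given. Nearest genes were the 5 of smallest root mean square difference.

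Replicates 1 to 3 stand for the title suffixes none, B and P. Deviations from group means correlated at 0.23 to 0.26 across groups for the same suffix, and on this the suffix was taken to pair arrays. Arrays of different suffix gave -0.18 to -0.05. Their negative average follows from the centring once the same-suffix values are positive, so it is no separate support. The main fit has no block. Alternatives changed scaling, floor, filter, variance model, weights, block and array. With 3 mice per group, precision is limited by their number. Promoter windows are from RefSeq (GRCm38.p6). All 7 genes matched at least 1 window, and those of Pcx and Pck1 were used.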

Additional observations from a re-analysis of the deposited data

How the results depend on the processing

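Across 17 alternatives, the log2 difference of each member probe set moved by less than 1 SD between replicates. This is no measure of stability. Filter, variance model and block leave a mean difference unchanged, and leaving out a single mouse cannot move it by 1 such SD. Leaving out single arrays turned the sign of the ordinary Pcx probe set 162288_f_at (lowest -0.18, highest 0.51) and of both Dlat probe sets (-0.44 to 0.13 and -0.43 to 0.73). In the same fits 93308_s_at ran from 0.02 to 1.34 and Pck1 from -2.14 to -0.15. The number of limma calls over all probe sets, 5, was 8 with median scaling, 10 with the floor at the 40th percentile, 10 with the replicate block, 12 with array weights, 3 with no intensity trend and 0 with no filter on dim probe sets (773 of 12422 at an unadjusted p under 0.05), and 1 to 11 without single arrays. It was 1 without CF replicate 1 or 2, 8 without CF replicate 3 and 11 without control replicate 2. Pathway genes gave 0 calls in all 17 (lowest adjusted p = 0.0615 among the 38 named), and the replicate block changed no other call. List medians moved as follows. Pyruvate entry and fates went from -0.68 to 0.00 with no filter. That median was 0.18 with the filter at the 60th percentile, where fewer dim genes remain. Glycolysis went to -0.023 with no filter and -0.20 with array weights, shuttles to 0.11 and regulators to 0.0663 with array weights. Without single arrays, medians ran from -0.55 to 0.073 for biotin, -0.19 to 0.28 for propionate, -0.20 to 0.074 for the citric acid cycle, -0.14 to 0.087 for shuttles, -0.34 to -0.073 for gluconeogenesis, -0.25 to -0.076 for glycolysis and -0.15 to 0.21 for regulators. In those fits Nfu1 ran from -0.57 to 0.17, Btd from -0.62 to 0.38, Slc5a6 from -0.84 to 0.12 and Hibch from -0.22 to 0.11, each changing sign; the cause was not tested. Among other named genes, Mccc1 was at -0.14 without CF replicate 1, Ldhb at -0.42 without CF replicate 1 and -1.57 without control replicate 3, Aqp7 at 0.024 without control replicate 3 and 0.28 with the floor at the 40th percentile, Pfkm at -0.46 and Cebpb at 0.35 without CF replicate 2, and Cebpd at 0.52 without control replicate 2. With that floor the dim probe sets MB, 93308_s_at, Dlat 96746_at and Pck1 were at 1.69, 0.25, 0.34 and -0.91.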
